A study of Caenorhabditis elegans with 2 samples.

Results

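Divergent promoter regions are stretches of the genome where a ChIP-seq summit lies upstream of 2 protein-coding genes that point away from each other. Here a region was called divergent when it was autosomal and its summit lay 0 to 1000 bp upstream of an annotated transcript start of a plus-strand gene and also of a minus-strand gene. The rule used positions only and no signal value. It was applied to the list that the authors made from both replicates pooled, with 6107 autosomal and 1592 X-linked regions, and found 597 divergent regions, 9.78% of the autosomal ones (95% exact binomial interval 9.04 to 10.5%). They were set against 1980 one-strand regions, whose summits lay within 1000 bp upstream of genes of 1 strand only, and against all pooled regions. The remaining 3530 autosomal regions lay upstream of no start within that distance.

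The regions come from ChIP-seq of NHR-237, a nuclear hormone receptor of the nematode Caenorhabditis elegans, in whole first-stage (L1) larvae of strain OP228. This strain carries the integrated transgene wgIs228, labelled as an insertion that targets nhr-237, in an unc-119(ed3) III background, and the labelled ChIP target is the fusion eGFP-nhr-237. There was 1 group of 2 biological replicates, each of pooled males and females of unknown age, and the labels give DNA fragments of 150 to 350 bp. They name nhr-237 as the antibody, so whether the antibody recognised the factor or its eGFP tag was not settled here. The possible control experiment named in the labels and larvae without the tag were not analysed here, so none of the shares below has a background from other chromatin. Whole larvae hold many cell types, and a signal cannot be assigned to any of them. The number of reads is unknown, and the intervals below cover counting error over regions only.

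In the compact genome of C. elegans, neighbouring genes on opposite strands often share a short intergenic stretch that holds the promoters of both. Many of the gene starts annotated there are trans-splice sites, at which a short leader RNA replaces the first part of the transcript, so the annotated start can lie downstream of where transcription begins. Nuclear hormone receptors bind DNA through a zinc-finger domain, and the textbook binding element of the family contains AGGTCA. No other factor was analysed here, so signal shared by many factors cannot be told from signal of NHR-237.

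Whole intergenic stretches between divergent starts show how close such a summit lies to both genes. The following 3 were taken from the 29 short stretches on chromosomes II to V (at most 300 bases and without an annotated exon) whose region was in the authors' list of repeated peaks, described below. They are plus-strand bases of ce11 from RefSeq, so the minus-strand gene begins to the left and the plus-strand gene to the right. Capitals mark the 21 bases centred on the summit. Among these 29, the first 2 are of the 4 with the highest signal and the last is the shortest.
eef-1G and ctf-4 (chrV:10965540-10965718): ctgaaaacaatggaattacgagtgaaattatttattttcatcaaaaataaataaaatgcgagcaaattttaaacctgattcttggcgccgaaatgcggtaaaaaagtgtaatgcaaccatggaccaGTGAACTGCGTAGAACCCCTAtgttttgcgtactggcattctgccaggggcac
rps-22 and polh-1 (chrIII:1950270-1950534): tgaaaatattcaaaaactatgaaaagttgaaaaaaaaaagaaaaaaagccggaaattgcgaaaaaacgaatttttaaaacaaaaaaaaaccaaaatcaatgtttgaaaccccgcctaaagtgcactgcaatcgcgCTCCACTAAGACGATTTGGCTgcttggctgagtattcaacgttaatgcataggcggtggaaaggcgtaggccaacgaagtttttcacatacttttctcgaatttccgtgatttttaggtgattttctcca
uncp-18 and ears-2 (chrIV:390469-390559): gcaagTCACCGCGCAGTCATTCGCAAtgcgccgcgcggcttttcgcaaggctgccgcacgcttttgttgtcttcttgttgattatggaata
In the first 2 the capitals hold a larger share of G and C than the stretch around them, which has long runs of A and T. In the stretch at eef-1G the first bases, ctgaaa, read tttcag towards the minus-strand gene, the letters of a usual nematode splice acceptor.

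The bases within 50 bp of the summit are shown for the divergent region of highest signal, again with the middle 21 in capitals.
Y17G9B.5 and rpl-20 (chrIV:4750015-4750115): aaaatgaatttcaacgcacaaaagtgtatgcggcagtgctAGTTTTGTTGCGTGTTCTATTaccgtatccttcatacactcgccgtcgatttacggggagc
The next 4 windows show the sequence features counted below. Capitals mark GAGAGA, read on either strand, in the divergent region at tasp-1 and in the one-strand region at cox-5A, and CTGCGTCT, read on either strand, at set-16 and Y57G11C.3.
tasp-1 and K01G5.10 (chrIII:10759202-10759302): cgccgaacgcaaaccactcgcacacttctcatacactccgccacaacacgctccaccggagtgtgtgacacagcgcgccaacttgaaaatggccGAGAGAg
cox-5A and unc-71 (chrIII:12905161-12905261): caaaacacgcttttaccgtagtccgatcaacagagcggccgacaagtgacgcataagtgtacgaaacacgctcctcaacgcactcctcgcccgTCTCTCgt
set-16 and drr-2 (chrIII:13643686-13643786): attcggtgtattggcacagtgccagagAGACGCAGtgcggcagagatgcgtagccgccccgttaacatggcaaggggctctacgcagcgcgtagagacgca
Y57G11C.3 and mrps-7 (chrIV:14767843-14767943): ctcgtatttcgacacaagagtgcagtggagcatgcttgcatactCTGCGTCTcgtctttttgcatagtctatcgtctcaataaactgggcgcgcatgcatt

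Divergent regions carried high signal more often than one-strand regions. The authors' IDR list (irreproducible discovery rate, a measure of how well peaks repeat between replicates) holds 970 regions. These are the pooled regions that rank highest by signal, with values between 52.6 and 419, so membership in it is the same measure as the pooled signal with a threshold. The signal is the authors' own score for a region, and its scale is not given in the sources used. Classes and gene lists are compared within 1 list, and only the replicates' signals at the same regions are set side by side. Of the divergent regions, 223 (37.4%, interval 33.5 to 41.4%) were in the IDR list, against 355 (17.9%, 16.3 to 19.7%) of the one-strand regions and 12.6% of all pooled regions. The difference between divergent and one-strand regions was 19.4 percentage points (95% Newcombe interval 15.3 to 23.7), and the ratio of the shares was 2.08. Regions are not replicates of a condition and neighbouring regions can share a gene pair, so no test was made across them.

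The median pooled signal was 44.1 (quartiles 30.9 and 68.8, highest 327) for divergent regions and 31.1 (26.0 and 43.7, highest 419) for one-strand regions, against 29.0 for all pooled regions. The quartile ranges of both classes overlapped. Among regions in the IDR list the classes lay closer, with medians of 80.1 for divergent and 72.4 for one-strand regions. The 3 one-strand regions of highest signal lay at rpl-3 (419), cdc-48.1 (376) and rpl-35 (285), and the first 2 of these stood above every divergent region.

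Read from the other side, divergent regions made up 27.6% of the 807 autosomal IDR regions. Of the 578 IDR regions upstream of any start they made up 38.6%, against 18.7% of the 1999 such regions outside the IDR list. By rank of pooled signal, 41 of the first 100 autosomal regions were divergent and 38 were one-strand. The divergent share was 27.9% among the first 800 ranks, 17.5% among the next 800, 7.38% among the next 1600 and 3.96% among the next 2800. The one-strand share moved less over the same ranks, with 44.1%, 39.3%, 32.4% and 27.3%.

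**Figure D1:**
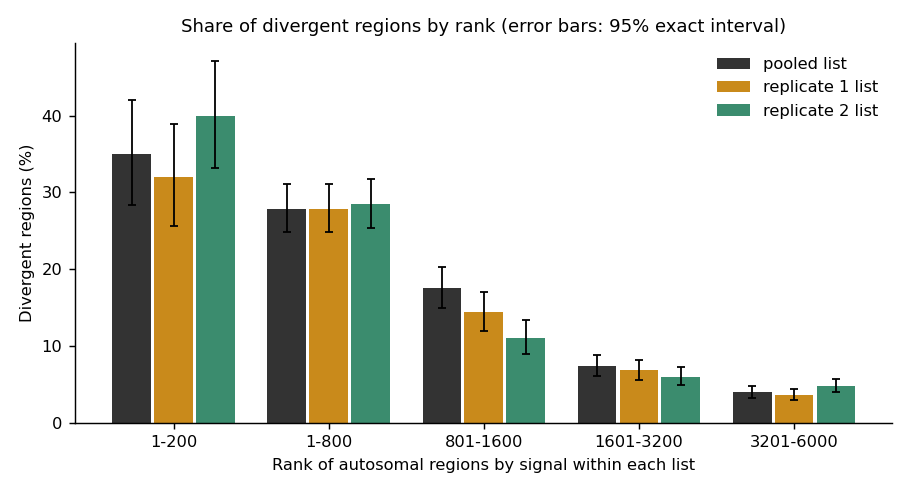
Share of autosomal regions that are divergent (vertical axis, percent) by rank of signal (horizontal axis) in the pooled list and in each replicate list, with 95% exact binomial intervals. In all 3 lists the share is highest in the first ranks (70, 64 and 80 of the first 200 regions) and lowest in the last bin (3.96%, 3.61% and 4.82%).

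The same order held in each replicate list, though these are not independent of the pooled list, which was made from both. In replicate 1, 221 divergent regions (37%, 33.1 to 41.0%) overlapped one of the 970 regions of highest signal, against 337 one-strand regions (17%, 15.4 to 18.7%) and 13.3% of all pooled regions. In replicate 2 it was 230 divergent regions (38.5%) and 372 one-strand regions (18.8%), against 13.1% of all pooled regions. In both replicates at once it was 162 divergent regions (27.1%, 23.6 to 30.9%) and 231 one-strand regions (11.7%, 10.3 to 13.2%), against 8.56% of all pooled regions. When the rule was applied afresh to each replicate list, cut to the length of the pooled list, it found 549 divergent regions in each. Of these, 40.1% in replicate 1 and 41.9% in replicate 2 were in that list's upper 970, against 16.6% of one-strand regions in replicate 1 and 18.2% in replicate 2.

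Every divergent region overlapped a region in at least 1 replicate list, and 516 (86.4%) did so in both, against 78.0% of one-strand regions and 73.4% of all pooled regions. Of all pooled regions, 15 overlapped none in either list. Spearman's rho between the replicates' signals was 0.63 over these 516 regions, and 0.59 over the 221 of them in the IDR list. The points share a genome and a pooled list, and the value is a description. Signal was higher in replicate 1 for 143 of the 221 and higher in replicate 2 for 78, with a median ratio of replicate 1 to replicate 2 of 1.13 (quartiles 0.881 and 1.43). Over all pooled regions with a match, the median signal was 16.8 in replicate 1 and 16.4 in replicate 2. Whether the 2 replicate lists share a scale is unknown, so these ratios describe the deposited scores only. The replicate signals were more than 2-fold apart at 19 of the 221. The most unequal was the region between cox-14, whose human counterpart helps to assemble cytochrome c oxidase, and rde-4, a double-stranded RNA-binding protein of RNA interference, with 12 in replicate 1 and 51.4 in replicate 2. The region at ant-1.1, an ADP/ATP translocase, went the other way with 57.9 in replicate 1 and 14.7 in replicate 2. So did the region at fahd-1, with 41.4 and 11.7 in the same order. Of the divergent IDR regions, 1 had no region in replicate 1 (ZK795.3 and ZK795.2, pooled signal 54.1) and 1 had none in replicate 2 (C07H6.2 and cux-7, pooled signal 97.8). These 2 pairs were chosen after their values were seen.

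**Figure D2:**
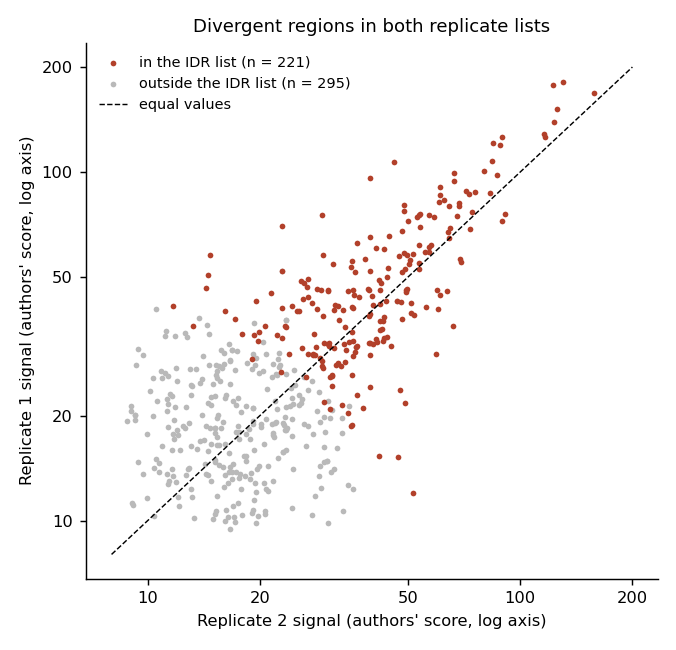
Signal of 516 divergent regions in replicate 1 (vertical) and replicate 2 (horizontal), both on log axes in the authors' score, with regions of the IDR list in red and others in grey. Most red points lie near the line of equal values, 143 of 221 above it, and 19 lie more than 2-fold from it.

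Both the distance to the start and the base composition differed between the classes. The median distance from the summit to the nearest start was 166 bp for divergent and 309 bp for one-strand regions. Spearman's rho between this distance and the pooled signal was −0.04 over the divergent and −0.15 over the one-strand regions. Divergent regions were more often in the IDR list in all 5 bands of distance. Among summits within 100 bp of a start the shares were 37.4% of 171 divergent and 21.7% of 276 one-strand regions. From there to 200 bp they were 37.9% of divergent and 22.1% of one-strand regions, and from 200 to 300 bp 41.8% of divergent and 23.1% of one-strand regions. From 300 to 500 bp they were 32.1% of divergent and 16.9% of one-strand regions. Beyond 500 bp the shares were 29.0% of 31 divergent and 11.6% of 610 one-strand regions, and the interval of the divergent share (14.2 to 48%) is wide. With one-strand regions weighted to the distances of the divergent regions, the difference was 16.4 points.

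The bases within 50 bp of the summit had a median GC content of 43.6% in divergent regions and 37.6% in one-strand regions, against 35.6% in all pooled regions. Over the 597 divergent regions, GC content and pooled signal had a Spearman rho of 0.49. In regions of the IDR list the median was 46.5% in both classes. The share in the IDR list was 8.75% of the 80 divergent regions under 30% GC, against 1.08% of one-strand regions. Between 30 and 40% GC it was 19.9% of divergent and 9.08% of one-strand regions. Between 40 and 50% it was 44.0% of divergent and 29.8% of one-strand regions, and from 50% upwards 60.5% of divergent and 43.4% of one-strand regions. Divergent regions were thus more often in the IDR list in each of the 4 bands, and the share in both classes was higher with each band. Weighted to the GC content of the divergent regions, one-strand regions had 24.2% in the IDR list, and the difference was 13.2 points. The part of base composition in the difference between the classes was not tested further.

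The rise in GC content around the summit was narrow in both classes. Averaged over the divergent IDR regions, GC content was 50% at the summit and 41.0% and 40.9% at 50 bp to either side. It was 30.4% and 30.7% at 150 bp, 34.4% and 34.9% at 250 bp, and 39.4% and 39.0% at 1000 bp. In one-strand IDR regions it was 49.2% at the summit and 42.8% and 42.4% at 50 bp. It was 35.3% and 34.8% at 150 bp, 35.0% and 34.5% at 250 bp, and 37.1% and 37.6% at 1000 bp. At 150 bp the divergent class thus lay below the one-strand class, and below its own values at 250 bp.

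**Figure D3:**
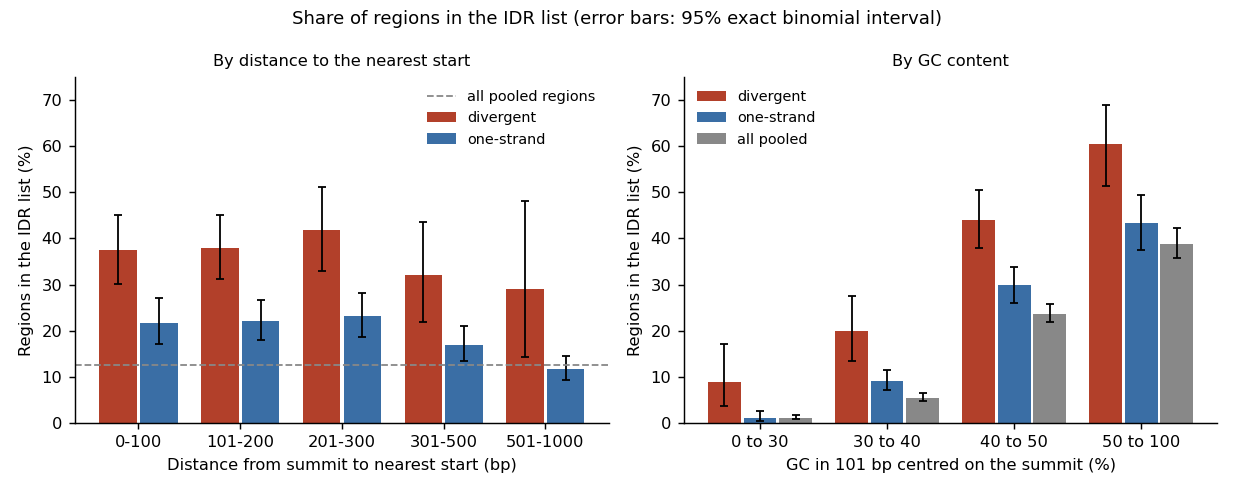
Share of regions in the IDR list (vertical axes, percent) by distance from the summit to the nearest start (left panel) and by GC content within 50 bp of the summit (right panel), with 95% exact binomial intervals; the dashed line is all pooled regions (12.6%). Divergent regions stand above one-strand regions in every bin. The lowest divergent bin is under 30% GC (8.75%, against 1.08% of one-strand regions), and the highest is from 50% GC (60.5%, against 43.4% of one-strand regions).

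All 5 autosomes showed the same order. Chromosome III had the highest share of divergent regions in the IDR list, 45.5% of 132, against 22.4% of its one-strand regions. Chromosome V had the lowest, 27.7% of 130, against 13% of its one-strand regions. Between them lay chromosome I (40.2% of divergent, 19.6% of one-strand regions), chromosome II (38% of divergent, 18% of one-strand regions) and chromosome IV (35.2% of divergent, 19.0% of one-strand regions). The intervals of the divergent shares overlap for neighbours in this order, and for chromosome III (36.8 to 54.3%) and chromosome V (20.2 to 36.2%) they do not. Divergent regions made up 12.5% of the regions on chromosome III and 7.78% on chromosome IV, the highest and lowest of the 5.

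The place of the summit between the genes varied widely. The distance between the nearest starts had a median of 579 bp (quartiles 373 and 843, from 15 to 1844 bp). The summit lay a median of 166 bp from the nearer start and 385 bp from the farther. Counted from the nearer start, it lay a median of 31.5% of the way to the other. It was nearer to the plus-strand start in 48.7% of regions (44.7 to 52.8%), an interval that includes an even split. Both starts lay within 500 bp in 73.1% of the divergent regions in the IDR list, against 61.0% of those outside it. Pooled signal and the distance between starts had a rho of −0.10 over the 597 regions. By that distance, 12 of 30 regions up to 200 bp, 60 of 140 regions between 400 and 600 bp (42.9%) and 29 of 91 regions over 1000 bp (31.9%) were in the IDR list, and the intervals of these shares overlap.

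**Figure D4:**
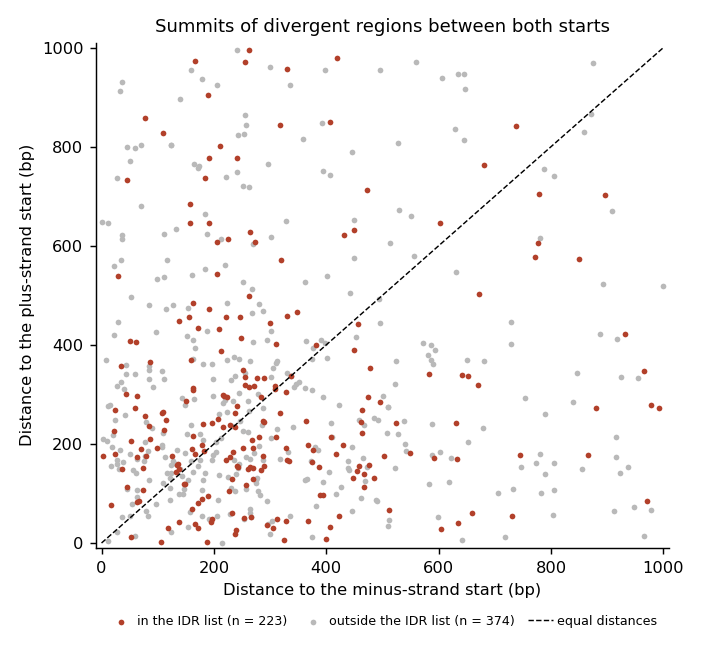
Distance of each divergent summit to the plus-strand start (vertical, bp) and to the minus-strand start (horizontal, bp), with 223 regions of the IDR list in red and 374 others in grey. Both colours fill the same area on both sides of the line of equal distances, most densely where both starts lie within 500 bp (391 of 597 regions).

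The narrowest stretches in the IDR list were those between F32D8.5 and F32D8.14 (65 bp, signal 61.9) and between uncp-18 and the mitochondrial glutamyl-tRNA synthetase gene ears-2 (92 bp, 69.1). The widest were those between the early-endosome GTPase gene rab-5 and nmat-2 (1598 bp, 77.9) and between cdc-48.2 and ctns-1 (1578 bp, 65.8). All 4 were chosen within the IDR list, so their signals lie above its threshold. Over all divergent regions the median signal was 45.4 up to 200 bp between the starts and 38.1 over 1000 bp.

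Most divergent summits, 527 of 597, lay between genes, and 37.6% of these were in the IDR list. A further 40 lay in an intron (27.5% in the IDR list), 29 in an untranslated exon (44.8%) and 1 in a coding exon of R12C12.6, which faces ran-5. One-strand summits between divergent genes whose farther start lay beyond 1000 bp were in the IDR list in 23.1% of 464 cases (19.3 to 27.2%). Those behind the end of a neighbouring gene were in it in 173 of 865 cases, and those inside a gene in 11.5% of 651. The highest of these 3 one-strand shares lay below the interval of the divergent share.

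The limit of 1000 bp cut a continuous range. Just inside it were the region at nhr-212 and nhr-130 (farther start at 999 bp, signal 38.4) and, both at 996 bp, a second region at nol-58 and zip-4 (32.7) and the first region at cls-2 and R107.5 (166). Just outside were the region at har-1 and wht-3 (1002 bp, 77.4) and a second region at cls-2 and R107.5 (1005 bp, 44.7).

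The 597 regions lay at 579 gene pairs with 1155 different nearest genes, and 563 pairs had 1 region. Of the 20 divergent regions of highest signal, 16 had a gene from at least 1 of 27 gene lists and 5 had a gene for a cytosolic ribosomal protein. All 20 overlapped the upper 970 regions of both replicates, which their choice by the pooled signal of both replicates makes likely. Chromosome III held 10 of them. Among all 597 divergent regions, 280 had a listed gene, 43 had a gene for a cytosolic ribosomal protein and 132 lay on chromosome III. Over all divergent regions, those with a listed gene were in the IDR list in 46.4% of 280 cases (40.5 to 52.5%), against 29.3% of 317 with none (24.4 to 34.7%). For one-strand regions the shares were 22.4% with a listed gene and 16.7% with none. The lists were chosen with earlier results of these data known, so these differences describe the lists and are no independent support. Where the lists are counted below, a divergent region belongs to a list when its nearest plus-strand or minus-strand gene does, and which gene of the pair, if either, relates to the signal cannot be told from position.

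Listed genes of the cytosolic ribosome stood at 43 divergent regions, and 45 of the 80 listed autosomal genes were there. The symbol pattern of the list missed rpl-36.A, which faces nuo-1 at a divergent IDR region with a signal of 79.6. Of these 43 regions, 32 (74.4%, 58.8 to 86.5%) were in the IDR list, with a median signal of 74.0. The one-strand regions at ribosomal protein genes had nearly the same share, 19 of 26 (73.1%), and median, 73.3. The share at these genes was thus high in both classes. The highest divergent signal of all, 327, lay between Y17G9B.5 and rpl-20, a large-subunit protein gene, at chrIV:4749968-4750174, with 169 in replicate 1 and 157 in replicate 2. That between K11H12.8 and rpl-15 had 263, with 139 in replicate 1 and 123 in replicate 2. Ribosomal protein genes stood on both sides of 3 divergent regions, all in the IDR list. These were rpl-24.1 and rps-10 (109), rpl-36 and rps-14 (102) and rps-30 and rpl-39 (58.3). The 11 ribosomal regions outside the IDR list had signals from 24.5 to 49.97, by construction below the threshold of 52.6.

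Other genes of protein synthesis followed with lower shares. Translation factor genes stood at 20 divergent regions, of which 7 (35%) were in the IDR list, a share within the interval for all divergent regions, against 3 of 13 one-strand regions. The highest were iff-2, the eIF5A gene (312; 181 in replicate 1 and 130.2 in replicate 2), eef-1A.1, the elongation factor eEF1A gene that faces the clamp-loader gene rfc-4 (242), and eef-1G (141). Genes of mitochondrial ribosomal proteins had 6 of 14 in the IDR list, led by mrps-7 (151), against 3 of 9 one-strand regions. Aminoacyl-tRNA synthetase genes had 4 of 7, led by the lysyl-tRNA synthetase gene kars-1 (81.4) and the methionyl-tRNA synthetase gene mars-1 (75.6), against 0 of 2 one-strand regions.

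Genes of protein folding and turnover held several of the highest regions. Chaperone and chaperonin genes stood at 23 divergent regions, 14 of them (60.9%, 38.5 to 80.3%) in the IDR list, with a median signal of 76.5, against 6 of 14 one-strand regions at such genes. The proteasome regulatory subunit gene rpn-3 and the Hsp110 chaperone gene hsp-110 face each other across 444 bp, with a signal of 249 (126 in replicate 1 and 116 in replicate 2). The Hsp90 gene hsp-90 had 202 (121 and 84.6 in the same order), and the chaperonin subunit gene cct-1, which faces the Dishevelled gene mig-5, had 186. The mitochondrial chaperonin gene hsp-60 had 164, and the J-domain gene dnj-13 had 162. Proteasome genes had 5 of 11 regions in the IDR list, with rpt-2 (70.2) and rpn-9 (67.1) next after rpn-3, against 2 of 9 one-strand regions.

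Genes of mitochondrial energy conversion and of organelles were counted in 4 lists. The respiratory chain and ATP synthase list had 10 of 19 divergent regions in the IDR list (52.6%), led by the cytochrome c oxidase gene cox-6B (162) and atp-1, which encodes an ATP synthase subunit (144), against 5 of 12 one-strand regions. All 3 divergent regions at V-ATPase genes, which encode the proton pump of acidic organelles, were in the IDR list, at vha-8 (163), vha-1 (124) and vha-17 (56.7), against 2 of 6 one-strand regions. At vha-17 the replicates differed, with 15.2 in replicate 1 and 47.1 in replicate 2. Vesicle sorting and GTPase genes had 9 of 18, led by the ESCRT-III gene vps-32.1 (166), which faces icd-1, and by rab-18 (136), against 7 of 16 one-strand regions. No divergent region lay at a gene of the autophagy list, while 11 one-strand regions did, 4 of them in the IDR list.

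Genes of the nucleus had shares in the IDR list between 36.4 and 50% by list, beside 37.4% of all divergent regions. Splicing factor genes stood at 28 divergent regions, 11 (39.3%) in the IDR list, led by prp-19 (105), hel-1 (98.6) and the SR protein gene rsp-3 (87.6), against 5 of 14 one-strand regions. The list of nuclear pore and transport genes had 7 of 14, with the importin-beta gene imb-1 (114) and the nucleoporin gene npp-3, which faces the topoisomerase II gene top-2 (100.7), against 2 of 10 one-strand regions. Mediator, TFIID and RNA polymerase genes had 5 of 11, led by taf-4 (113), against 2 of 9 one-strand regions. In the list of cell cycle and DREAM genes (DREAM is a repressor complex of cell cycle and developmental genes) 7 of 16 were in the IDR list, against 4 of 9 one-strand regions. The 7 divergent ones included lin-54, the DNA-binding subunit of that complex, which faces rpl-12 (214; 126 in replicate 1 and 89.4 in replicate 2), the E2F gene efl-1 (134), the histone-binding gene lin-53 (113) and the retinoblastoma gene lin-35 (109). DNA repair and replication genes had 5 of 13 divergent regions in the IDR list, against 2 of 7 one-strand regions. For chromatin modifier genes the divergent share was the lower one, with 4 of 11 (36.4%), against 8 of 17 one-strand regions (47.1%). Highest among the chromatin modifiers was set-16, an MLL-type histone methyltransferase gene, with 208 (119.8 in replicate 1 and 88.4 in replicate 2). Of 4 regions at histone genes 2 were in the IDR list, at the H2A.Z gene htz-1 (155) and between his-68 and his-67 (79.0), against 1 of 2 one-strand regions.

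The other lists hold genes of large families and of transcription factors. Nuclear hormone receptor genes, the family of NHR-237 itself, stood at 4 divergent regions and 59 one-strand regions. Of these, 1 of the 4 and 7 of the 59 were in the IDR list, and the divergent one, at nhr-142, had 89.1. Chemoreceptor genes, the largest list with 1273 autosomal genes, stood at 16 divergent regions, 2 of them (12.5%, 1.55 to 38.3%) in the IDR list, against 1 of 76 one-strand regions. Both divergent ones face a gene of another kind. Cuticle collagen genes had 3 of 6 divergent regions in the IDR list and 0 of 15 one-strand regions. The 3 were at col-38, which faces rpl-5 (108), at col-2, which faces the kinetochore gene ndc-80 (75.2), and at col-71 (68.3, with 50.8 in replicate 1 and 14.5 in replicate 2). The bZIP list had 1 of 4 divergent regions in the IDR list, at zip-4 (57.2), against 5 of 15 one-strand regions. The homeobox, forkhead, GATA and bHLH list had 1 of 4, at the homeobox gene ceh-38 (144), against 2 of 21 one-strand regions. The list of actins and tubulins, which also takes other families such as the cap and arx genes, had 2 of 6 (33.3%). These were at cap-2 (105) and cap-1 (56.7), neither of them an actin or tubulin gene. Of the one-strand regions of this list, 3 of 5 (60%) were in the IDR list. F-box protein genes had 2 of 7, against 2 of 15 one-strand regions, and neuropeptide and insulin-like peptide genes 1 of 3, against 0 of 10 one-strand regions. The cytochrome P450 and UDP-glucuronosyltransferase list had 0 of 3, against 0 of 13 one-strand regions, and the C-type lectin list 0 of 1, against 0 of 9 one-strand regions. With so few regions the intervals of these shares are wide, and none of the lists was tested.

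**Figure D5:**
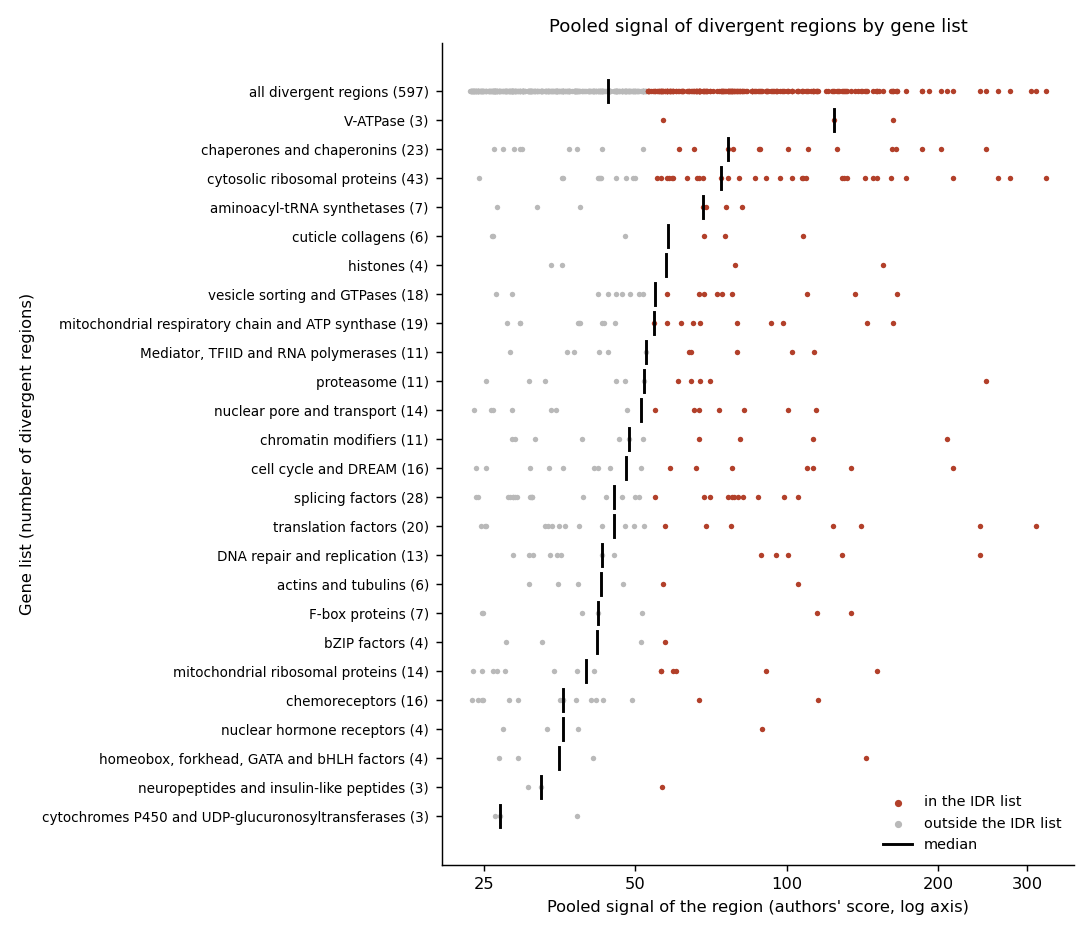
Pooled signal (horizontal, authors' score, log axis) of each divergent region by gene list, for lists with 3 or more regions, with regions of the IDR list in red, others in grey and the median as a bar. Medians run from 26.9 for cytochromes P450 and UDP-glucuronosyltransferases to 76.5 for chaperones and 124 for the 3 V-ATPase regions, against 44.1 for all 597, and single high values stand in lists with low medians.

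A gene from a list stood on each side of 47 divergent regions, of which 20 (42.6%, 28.3 to 57.8%) were in the IDR list. That share was within the interval for regions with any listed gene, but those regions include the 47. Regions with a listed gene on only the plus or only the minus side were not counted apart. Whether a listed gene on both sides goes with a different share was thus not tested. Besides pairs named above, the regions with a listed gene on each side included rps-22, which faces the translesion DNA polymerase gene polh-1 (128). Another lay between the secretory translocon genes trap-3 and sec-61.B (72.5). The Sm-like gene lsm-1 facing rps-9 (76.2) and the RNA polymerase subunit gene rpb-3 facing the proteasome gene pas-4 (64.5) were others. The 3 highest divergent regions outside the IDR list lay at C39E9.12 and prcc-1 (52.6), mdt-22 and clpp-1 (52.4) and pmlr-1 and ric-19 (52.2), just under the threshold.

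Matches to 10 short motifs were counted within 50 bp of each summit, on both strands. AGGTCA, the textbook nuclear receptor element, was in 2 of the 223 divergent IDR regions (0.897%, 0.109 to 3.20%), in 2.54% of the one-strand IDR regions and in 2.66% of all pooled regions. GAGAGA was in 29 divergent IDR regions (13%, 8.89 to 18.1%), against 30.7% of one-strand IDR regions (25.9 to 35.8%) and 14.2% of all pooled regions. The difference was −17.7 points (95% Newcombe interval −24.0 to −10.9). In divergent regions outside the IDR list GAGAGA stood in 13.6%, a share inside the interval for those within it.

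The lower share of GAGAGA in divergent than in one-strand IDR regions held at like GC content from 40% upwards and on each autosome. Between 40 and 50% GC it was in 11.7% of 111 divergent and 33.3% of 171 one-strand regions, and from 50% GC in 14.1% of 78 divergent and 33.1% of 118 one-strand regions. Between 30 and 40% GC the shares lay closer, at 18.5% of 27 divergent and 19.7% of 61 one-strand regions. With the nearest start within 200 bp it was in 15.9% of divergent and 28.2% of one-strand regions, and with the start farther away in 8.24% of divergent and 32.4% of one-strand regions. By chromosome it ran from 9.80% on I to 21.1% on IV among divergent IDR regions, and from 19.4% on II to 41.9% on I among one-strand IDR regions. The intervals of both classes overlapped on chromosomes II, III and IV.

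CTGCGTCT was in 19 divergent IDR regions (8.52%) and 14.4% of one-strand IDR regions, against 3.94% of all pooled regions and 3.21% of divergent regions outside the IDR list. It and GAGAGA can share bases, as they do in the window at set-16. Both were found in 6 divergent IDR regions, with overlapping matches in 4. TATAAA was in 2.24% of divergent IDR regions and 10.4% of those outside the list, against 4.51% of one-strand IDR regions and 11.8% of all pooled regions. A run of 6 T, on either strand, was in 25.6% of divergent IDR regions and 42% of those outside the list, against 19.2% of one-strand IDR regions and 39.6% of all pooled regions. Both of these motifs hold only A and T, and the lower shares stood beside the higher GC content of the IDR regions. The result for the run of 6 T depended on the window. Within 100 bp of the summit it was in 69.1% of divergent and 54.4% of one-strand IDR regions, against 64.4% of all pooled regions. TATAAA kept its order there, with 11.7% of divergent IDR regions and 22.9% of all pooled regions. TGATAA, the core of GATA elements, was in 2.24% of divergent IDR regions, against 1.69% of one-strand IDR regions and 8.51% of all pooled regions. The E-box CACGTG was in 1.35% of divergent IDR regions, against 3.38% of one-strand IDR regions and 2.39% of all pooled regions. Within 100 bp of the summit it was in 4.48% of divergent IDR regions, against 4.21% of all pooled regions. CCGCCC was in 4.93% of divergent IDR regions, against 6.48% of one-strand IDR regions and 2.88% of all pooled regions. TGACTCA was found in 1 of the 223. TGACGTCA was found in 0 of the 223 (exact binomial interval 0 to 1.64%). These are letters in a window, not binding sites.

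A gene for a tRNA, a small nucleolar RNA or a small nuclear RNA was within 250 bp of the summit in 10 divergent regions (1.68%), 50 one-strand regions (2.53%) and 3.38% of all pooled regions. Without these regions the difference between the classes in the IDR share was 19.0 points, and without regions at listed ribosomal protein genes it was 17.3 points.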

How the data were processed

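ChIP-seq for eGFP-tagged NHR-237 in whole L1 larvae of strain OP228 was analysed from 4 deposited ce11 peak lists in narrowPeak format, for 1 group of 2 biological replicates. The deposited readme files say that a replicate list rests on the alignment of 1 replicate and the pooled list on those of both, in each case with a control alignment, and that the IDR list was derived from the other 3. Neither the aligner, peak caller and versions nor the IDR threshold is given in the sources used. The signal of each region is the authors' deposited score, of unstated scale, and served to rank regions within 1 list. Signals of the 2 replicates at the same region were also set side by side, without rescaling. The summit of each region was taken from the offset that the authors deposited beside it, in bp from the region's start. The pooled list had 6107 autosomal and 1592 X-linked regions, the IDR list 970 regions and the replicate lists 21745 and 25720. Most pooled regions, 7670, were 364 bp wide, and all 9 narrower divergent regions were in the IDR list. The lists on the older build ce10 were not used here, and no coordinates were converted.

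Gene starts were read from Ensembl release 115 for WBcel235, whose coordinates are those of ce11, with all transcripts of 17242 autosomal protein-coding genes. Bases came from the RefSeq genome of the same assembly. Positions are 1-based. A replicate region was matched to a pooled region by at least 1 bp, taking the strongest match, so 2 pooled regions can share 1 replicate region. Shares have 95% exact (Clopper-Pearson) binomial intervals, and differences of shares Newcombe intervals. No test was made, since regions are not replicates. Calculations used Python 3.11.15, pandas 2.3.3, numpy 2.4.6 and scipy 1.17.1, and the classing of summits was checked on simulated data.

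The members, the gene lists (by patterns of gene symbols), the motifs and the rule for named genes were chosen with earlier results of these data known. That rule takes the genes at the 20 divergent regions of highest signal, the highest of each autosome, up to 3 of each list, divergent IDR regions with a listed gene on each side, the narrowest and widest stretches, the 3 highest outside the IDR list, the 3 most unequal between replicates, those nearest to the 1000 bp limit and the 3 highest one-strand regions. Some regions that the rule takes are not reported here. Alternatives were windows of 500 and 2000 bp, outermost starts, the middle of the region as its position, the stronger IDR regions only, each replicate or chromosome left out, other overlap rules and other motif windows. Weighting to GC content, one-strand summits outside genes, the count of GAGAGA in replicate lists and by GC, distance and chromosome, and the count of TTTCAG were added after the data were seen.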

Additional observations from a re-analysis of the deposited data

How the results depend on the processing

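The difference between divergent and one-strand regions in the IDR share was above 0 in all 17 alternatives computed for it, from 13.2 to 23.7 points. The lowest came from weighting one-strand regions to the GC content of divergent regions, an alternative chosen after seeing the data. With only the stronger 50% of IDR regions counted, the shares were 23.3% of divergent and 8.48% of one-strand regions, a difference of 14.8 points, as fewer regions count as called. With a window of 500 bp they were 41.7% of divergent and 21.7% of one-strand regions, with median signals of 47.0 for divergent and 32.8 for one-strand regions, and 6.40% of autosomal regions were divergent. With a window of 2000 bp the one-strand share was 13.8%, the medians were 40.5 for divergent and 30.1 for one-strand regions, and 14.7% of autosomal regions were divergent. With outermost starts only, 8.81% were divergent. Without replicate 1 or 2, each list standing alone, 40.1 to 41.9% of divergent and 16.6 to 18.2% of one-strand regions were in the upper 970, a difference of 23.4 to 23.7 points, and 8.91 to 9.10% of autosomal regions were divergent. Leaving out a chromosome gave differences of 18 to 20.4 points, and one-strand summits outside genes gave 16.3 points. In the upper 970 of each replicate list alone, GAGAGA was in 13.9 to 17.3% of divergent and 23.3 to 32.6% of one-strand regions. In IDR regions it was in 23.3% of divergent and 42.3% of one-strand regions within 100 bp of the summit. Of 57 alternatives in all, 17 were for the difference in the IDR share, and 0 of these changed direction. The others were for single shares or medians, which have no direction, and for no motif other than GAGAGA. Of the 57, 36 stayed within the interval of the reported value and 21 moved beyond it. The cause of these moves was not tested. No paired analysis was possible because there was 1 group. Depth is unknown, and no interval covers the spread between larval cultures.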

Other observations

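The letters TTTCAG, a usual form of the nematode splice acceptor, were looked for directly before the annotated starts after they were seen in the printed stretches. They ended at the base before the start at 25% of the plus-strand and 22.8% of the minus-strand starts of the 597 divergent regions. Among the outermost starts of 17242 autosomal protein-coding genes the share was 12.3%. These are unlike sets, since the starts at regions are the nearest of any transcript and need not be outermost. At least 1 of the starts had them in 42.2% of divergent regions (38.2 to 46.3%) and in 47.5% of those in the IDR list (40.8 to 54.3%), and both had them in 5.53%. Among one-strand regions the nearest start had them in 17.8%, and among those in the IDR list in 24.8%. A divergent region has 2 starts and so 2 chances of a match, and the shares for single starts are the ones to set beside those of one-strand regions.

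At 16 of the 579 gene pairs there was more than 1 divergent region, and 2 pairs had 3. At 8 of these 16 pairs the strongest region was in the IDR list, and no pair had more than 1 region in it. The pair of pdtf-1 and T26A8.4 on chromosome IV had 3 regions with signals from 37.7 to 113. The nearest starts were 145 bp apart at the strongest of them, and regions of 1 pair can differ in their nearest annotated starts.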
